A study of Mus musculus with 112 samples.

Results

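Calorically restricted (CR) BALB/cJ mice received the same weekly weight of food as the control mice of 6 other strains, under opposite diet labels. The 8 white adipose tissue (WAT) arrays of BALB/cJ CR mice were therefore set against the mean of 6 control groups with 8 arrays each, 48 in all, namely DBA/2J, B6C3F1/J, C57BL/6J, CBA/J, 129S1/SvImJ and C3H/HeJ. These 56 arrays came from a series of 112, which also held the 8 BALB/cJ control mice and the 48 CR mice of the other strains. All mice were males, bought at 6 weeks of age, housed singly and given 84 kcal a week until the diets began at 8 weeks, and their epididymal fat was taken at 22 weeks after a night without food. BALB/cJ CR mice were given 24 g a week of the purified CR diet. Control mice of the other strains were given 24 g a week of an AIN93M-based diet, BALB/cJ controls 31 g of it, and CR mice of the other strains 18 g of the CR diet, lowered to 14 g from week 14 in 129S1/SvImJ and C57BL/6J. For 129S1/SvImJ and C57BL/6J controls the 24 g follow from the general feeding plan and were not stated one by one. The composition of the 2 diets is not given in the sources used here, so equal weight need not be equal energy, and the weights are food provided, not intake. Strain, diet label and diet product changed together between BALB/cJ CR and the 6 control groups, so their parts cannot be told apart in that contrast. Each strain was a single stock, and B6C3F1/J is the hybrid of C57BL/6 and C3H, so the 6 control groups are not 6 unrelated genomes.

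WAT stores triacylglycerol and also makes fatty acids anew. In that pathway citrate leaves the mitochondrion, is cleaved by ATP citrate lyase (Acly), and is built into fatty acids by acetyl-CoA carboxylase (Acaca, Acacb) and fatty acid synthase (Fasn). Acetyl-CoA also comes from acetate through acetyl-CoA synthetase (Acss2), and the same precursor feeds cholesterol synthesis, in which Lss forms the sterol rings. CR is known to raise lipogenic and mitochondrial gene expression in WAT and to lower that of macrophages and leptin.

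Gene level was a log2 intensity of the whole tissue, and a log2 difference of 1 is a doubling. Array medians ran from 6.76 to 6.82 in BALB/cJ CR and from 6.72 to 6.86 over all arrays. The strain labels were checked with Zhx2, a transcriptional repressor known to be low in BALB/cJ: it lay at 6.68, 6.89 and 7.24 (lowest, median and highest of 8 mice) in BALB/cJ CR and at 6.82, 6.9 and 7.04 in BALB/cJ controls. The 48 control mice of the other strains lay at 8.62, 9.03 and 9.32, and their CR mice at 8.86, 9.13 and 9.54. All 16 BALB/cJ arrays were thus below all 96 others. H2-Ea, a class II gene that C57BL/6J and 129S1/SvImJ do not express, had control medians of 5.80 in C57BL/6J and 5.84 in 129S1/SvImJ against 11.46 in BALB/cJ CR. No gene checks the diet label.

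Some mice stood apart within their group. BALB/cJ CR mouse 3 had a seminal vesicle marker mean of 5.89, and BALB/cJ CR mouse 7 and BALB/cJ control mouse 6 had skeletal muscle marker means of 7.43 and 7.10. They are among 13 arrays with raised markers of another tissue, whose part in the results was not tested beyond giving values with and without these 13. In the lipogenic genes the BALB/cJ CR mice 4 and 6 lay near the controls, and the library labelled BALB/cJ control mouse 3 lay with the CR mice. All 3 had the Zhx2 level of BALB/cJ. They were kept, since leaving them out by their readout would choose the outcome.

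Promoters of genes on which the comparison turned are shown for their letters: Acly and Acss2, called against the 6 control groups and against BALB/cJ controls, Fasn, the fatty acid synthase, Lss, the cholesterol gene with the largest difference, and Hmgcs1, the cholesterol gene that moved the other way. Hmgcs1 was chosen after its value was seen. Each is the run of 250 bases before the annotated start, 5′ to 3′ on the gene's strand, from RefSeq for GRCm38.p6, at chr11:100528001-100528250 on the minus strand for Acly, chr2:155517793-155518042 on the plus strand for Acss2, chr11:120824548-120824797 on the minus strand for Fasn, chr10:76531355-76531604 on the plus strand for Lss and chr13:119690101-119690350 on the plus strand for Hmgcs1. This reference is C57BL/6J and holds no BALB/cJ variants. Capitals mark CACGTG (the E-box), TCACNCCAC (a sterol response element) or CCAAT (bound by NF-Y), on either strand, so that ATTGG is CCAAT read backwards, and overlapping matches both count.
Acly: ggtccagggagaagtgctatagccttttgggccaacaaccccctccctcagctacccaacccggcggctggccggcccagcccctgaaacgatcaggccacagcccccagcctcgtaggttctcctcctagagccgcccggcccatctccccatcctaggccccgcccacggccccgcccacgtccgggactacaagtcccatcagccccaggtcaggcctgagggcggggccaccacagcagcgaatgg
Acss2: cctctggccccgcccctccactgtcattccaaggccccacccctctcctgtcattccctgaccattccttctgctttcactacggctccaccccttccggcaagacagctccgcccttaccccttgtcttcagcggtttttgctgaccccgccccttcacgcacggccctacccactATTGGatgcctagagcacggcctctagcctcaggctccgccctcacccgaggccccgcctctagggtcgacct
Fasn: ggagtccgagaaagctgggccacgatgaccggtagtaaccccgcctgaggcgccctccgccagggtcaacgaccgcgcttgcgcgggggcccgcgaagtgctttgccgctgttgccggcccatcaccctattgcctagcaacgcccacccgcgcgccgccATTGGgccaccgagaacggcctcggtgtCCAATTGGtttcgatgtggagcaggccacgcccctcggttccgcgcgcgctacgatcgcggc
Lss: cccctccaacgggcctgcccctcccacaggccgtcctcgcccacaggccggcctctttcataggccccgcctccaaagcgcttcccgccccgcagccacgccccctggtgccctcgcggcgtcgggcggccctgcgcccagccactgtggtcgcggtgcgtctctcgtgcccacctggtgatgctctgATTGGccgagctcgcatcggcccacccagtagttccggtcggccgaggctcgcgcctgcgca
Hmgcs1: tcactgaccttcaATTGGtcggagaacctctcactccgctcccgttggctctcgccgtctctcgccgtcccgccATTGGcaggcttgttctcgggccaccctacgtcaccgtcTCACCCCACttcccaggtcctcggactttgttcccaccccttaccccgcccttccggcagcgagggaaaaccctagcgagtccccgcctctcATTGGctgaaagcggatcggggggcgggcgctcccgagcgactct
Acly held none of the 3 motifs, Acss2 and Lss had 1 CCAAT each, Fasn had 3, and Hmgcs1 had 1 TCACNCCAC and 3 CCAAT. Among all 27025 promoters of the same length, 6.05% held CACGTG, 1.04% TCACNCCAC and 34.5% CCAAT. This last motif was in 7 of the 14 fatty acid synthesis genes with a listed promoter (50%) and in 11 of the 12 cholesterol synthesis genes (91.7%), as in Lss and Hmgcs1, whose RNA differed from the controls in opposite directions. A match describes letters and is no sign of binding.

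Of 19938 genes, 6621 (33.2%) differed between BALB/cJ CR and the mean of the 6 control groups (limma, Benjamini-Hochberg adjusted p under 0.05). There were 3536 higher (17.7%) and 3085 lower (15.5%), and 196 differed by at least 1 on the log2 scale (75 higher, 121 lower). Against single strains the counts ran from 4646 for DBA/2J to 6726 for B6C3F1/J. A set of 1222 genes (6.13%) passed against each of the 6 control groups with 1 sign, 730 higher (3.66%) and 492 lower (2.47%). In 60 genes (0.301%) the 8 BALB/cJ CR mice did not overlap the 48 controls, 46 higher (0.231%) and 14 lower (0.0702%). For scale, each other strain's control group differed from the mean of the other 5 in 2307 to 4910 genes, of which 33 to 241 differed by at least 1 on the log2 scale. The DBA/2J controls, with 241, exceeded the 196 of BALB/cJ CR. DBA/2J control mice 3 and 4 are among the 13 arrays with raised markers of another tissue, with epididymis marker means of 7.58 and 9.39. The part of these 2 arrays in the 241 was not tested. The mice replicate a strain and not the set of strains: with the 6 control group means as units and BALB/cJ CR as 1 more, 17 genes passed, among them Rarres1, Aqp11, Zhx2, Prr32, Lep and Mest, and 2231 had an unadjusted p under 0.05.

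The largest difference was in Rarres1, a retinoic acid responsive membrane protein. BALB/cJ CR mice had 11.25, 11.58 and 12.05 (lowest, median, highest) against 5.27, 6.00 and 7.65 in the 48 controls, a log2 difference of 5.49 ± 0.13 (SE; adjusted p = 5.21e-62). No BALB/cJ CR mouse came within reach of a control mouse of the other strains. BALB/cJ controls had 11.23, 11.72 and 12.08, so the diets of BALB/cJ overlapped fully, with a difference of -0.08.

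The other genes with the largest increases that passed against each strain were Aqp11 (2.63), Unc5a (2.36), Sycp3 (1.78), Mc5r (1.71), Tst (1.69), Tmem45a (1.67) and Snhg11 (1.65). Aqp11, an intracellular aquaporin, lay at 11.92, 10.95, 11.48, 8.90, 10.41, 8.29, 11.30 and 11.04 in BALB/cJ CR mice 1 to 8 and at 7.14, 7.96 and 8.45 in the controls. Only the lowest CR mouse reached the control range. In BALB/cJ controls it lay at 8.02, 8.75 and 11.58, and the diets differed by 1.52 (adjusted p = 0.000464). Unc5a, a netrin receptor, lay at 8.68, 10.48 and 11.10 against 6.10, 8.14 and 9.28, with a diet difference of 0.91 (adjusted p = 0.0136) in BALB/cJ. Sycp3, a meiotic chromosome protein, and Tmem45a also differed between the BALB/cJ diets, by 1.13 (adjusted p = 0.0251) and 0.71 (adjusted p = 0.0363). When each BALB/cJ mouse was left out in turn these diet calls held in 16 of 16 fits for Aqp11, 12 for Unc5a, 6 for Sycp3 and 5 for Tmem45a. Sycp3 was the 1 called member of 12 testis germ cell markers against the 6 control groups, where 33.2% of all genes were called. Mc5r, a melanocortin receptor, Tst, a mitochondrial sulfurtransferase, and Snhg11, a long noncoding RNA, had diet differences of 0.09, 0.14 and 0.21 that did not pass.

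The largest decreases were Folh1 (-2.68), Slc5a7 (-2.67), Thbs1 (-2.67), Prr32 (-2.15), Zhx2 (-2.08), Fgf13 (-1.98), Peg3 (-1.87) and H2-Ab1 (-1.84). Slc5a7, the choline transporter of nerve endings, lay at 5.24, 5.84 and 6.61 in BALB/cJ CR and at 6.81, 8.48 and 9.81 in the controls, with no overlap. Folh1, a folate hydrolase, lay at 5.22, 6.16 and 8.03 against 7.47, 9.27 and 10.05. The BALB/cJ control mice differed from the same groups by -3.13 in Slc5a7 and -3.16 in Folh1. Thbs1, a matrix glycoprotein, split the CR group: BALB/cJ CR mice 4 and 6 had 10.95 and 11.40 and the other 6 had 7.28 to 8.36, while the 48 controls ran from 9.21 to 12.56. The diet difference of Thbs1 in BALB/cJ was -0.66 (adjusted p = 0.349). Peg3, an imprinted zinc finger gene, had the same 2 mice highest, at 10.57 and 10.86, against a control range of 9.45 to 11.76. H2-Ab1, a class II antigen presentation gene, was at 8.33, 9.19 and 9.52 in BALB/cJ CR, at 8.68, 9.16 and 9.44 in BALB/cJ controls and at 9.39, 11.02 and 12.14 in the other controls.

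**Figure D1:**
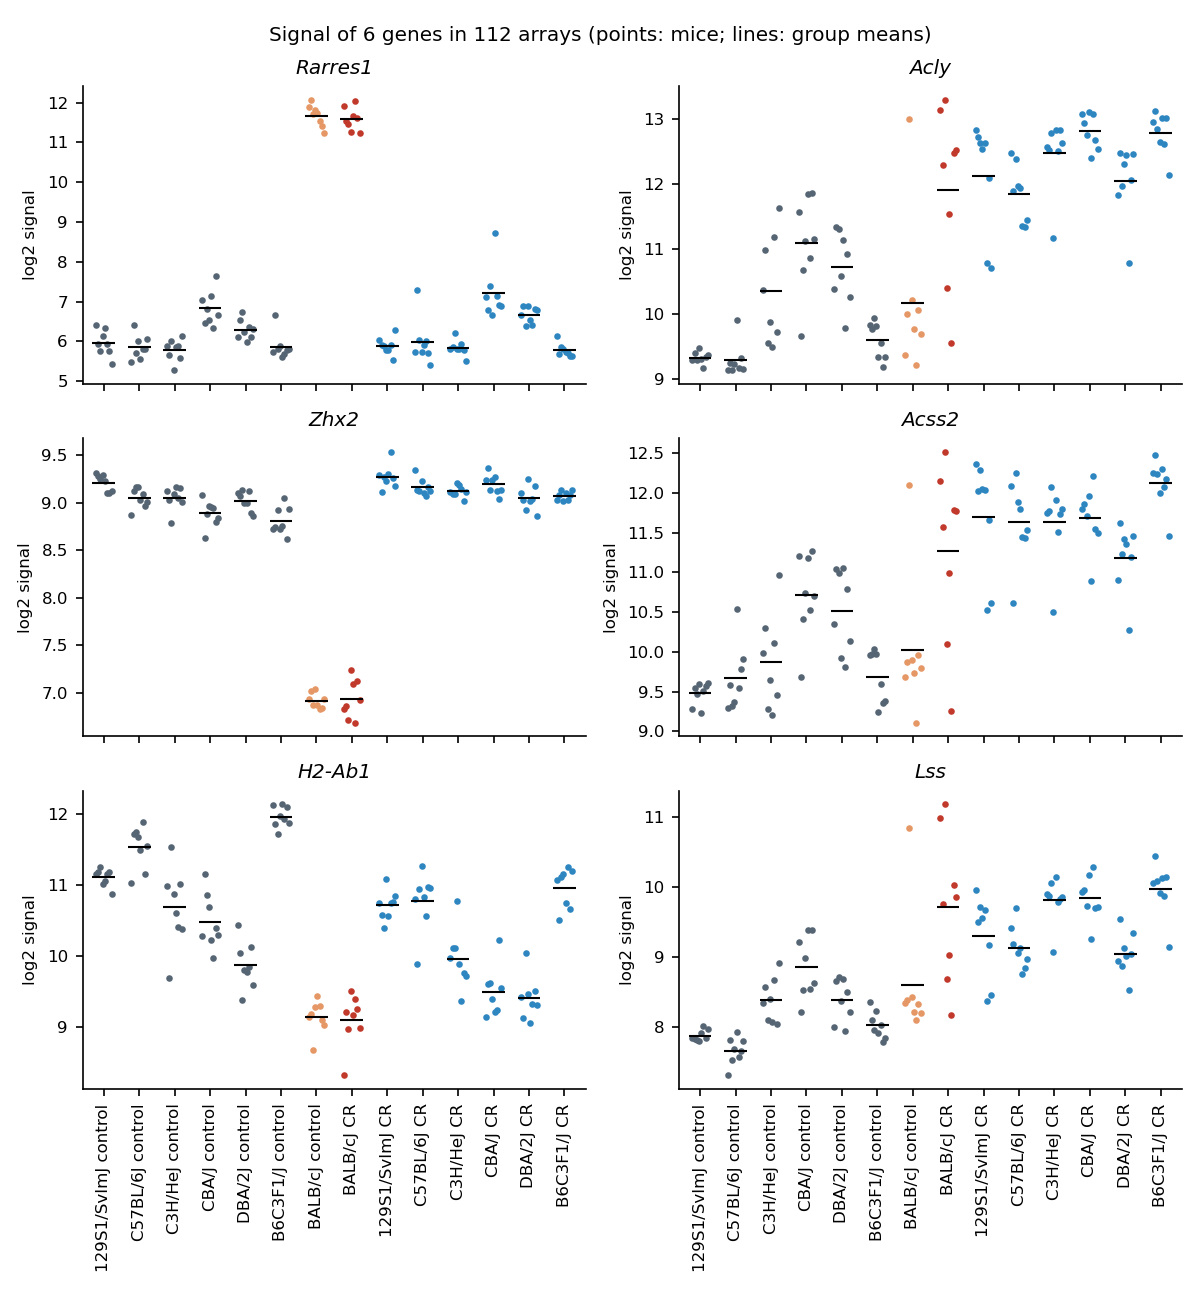
Log2 intensity of Rarres1, Zhx2, H2-Ab1, Acly, Acss2 and Lss in each mouse (points) of the 14 groups, with group means as lines. Rarres1 and Zhx2 set all 16 BALB/cJ mice apart under both diets, while in Acly, Acss2 and Lss the BALB/cJ CR mice spread from the control range to the CR range.

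Fatty acid synthesis genes were higher in BALB/cJ CR: 16 of 18 passed and none was lower, with a median difference of 1.09 against 0.006 over all genes. Of all genes, 17.7% were higher. Acly lay at 9.56, 12.39 and 13.30 in BALB/cJ CR and at 9.13, 9.78 and 11.86 in the 48 controls, a difference of 1.84 ± 0.26 (SE; adjusted p = 3.39e-09). The upper 5 CR mice were above all controls, and mice 4, 5 and 6 were within their range. Elovl6, which lengthens palmitate, lay at 9.14, 12.58 and 13.24 against 8.26, 9.74 and 12.49, a difference of 1.88 (adjusted p = 9.00e-09). Acss2 lay at 9.26, 11.67 and 12.52 against 9.20, 9.86 and 11.27 (1.28, adjusted p = 5.59e-07). Elovl3 (1.69), Thrsp (1.62), Acaca (1.26), Slc25a1 (1.18), Scd2 (1.16), Me1 (1.13), Acacb (1.06), Fads2 (0.82), Fasn (0.79), Mlxipl (0.70), Fads1 (0.69) and Srebf1 (0.61) also passed. Slc25a1 carries citrate out of the mitochondrion, Me1 supplies NADPH, and Mlxipl and Srebf1 are lipogenic transcription factors. Scd1 passed at 0.07 only, and Elovl5 (0.13) and Pklr (0.15) did not pass. In BALB/cJ controls 8 of the 18 were higher than in the other controls (background of genes called 27%, 13.6% higher), with a median of 0.27. Without the 13 arrays with other tissues 16 of 18 passed, with a median of 0.91.

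Single mice accounted for much of the spread. The mean over the 18 genes was 11.93, 11.43, 12.07, 10.55, 11.13, 10.07, 11.71 and 11.53 in BALB/cJ CR mice 1 to 8. Control mice of the other strains ran from 9.72 to 11.42, so CR mice 1, 2, 3, 7 and 8 were above all 48 and CR mice 4, 5 and 6 were within their range. BALB/cJ controls had 10.23, 10.54, 11.90, 10.55, 10.38, 10.07, 10.52 and 10.42, with mouse 3 alone at the CR level. CR mice 4 and 6 were the 2 lowest of their group in 17 of the 18 genes, and control mouse 3 was the highest of its group in 17. The SD of Acly was 1.32 in BALB/cJ CR and 1.20 in BALB/cJ controls, against 0.09 to 0.82 in the 6 control groups. Which property of these 3 mice goes with their values was not tested.

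**Figure D2:**
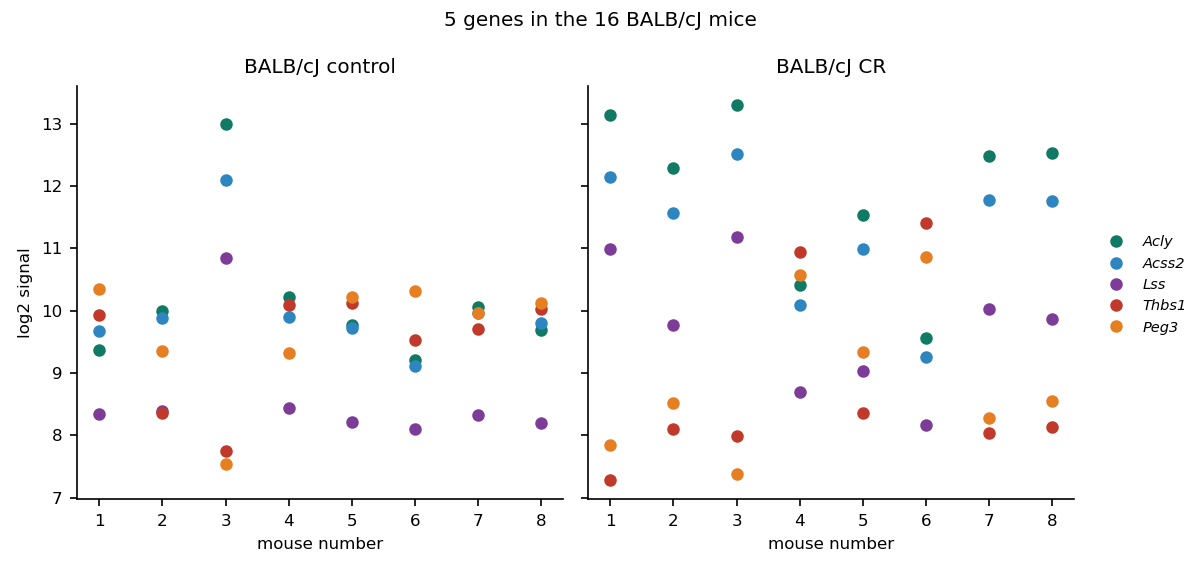
Log2 intensity of Acly, Acss2, Lss, Thbs1 and Peg3 in the 16 BALB/cJ mice, by mouse number and diet. CR mice 4 and 6 are low in Acly, Acss2 and Lss and high in Thbs1 and Peg3, and control mouse 3 shows the opposite pattern.

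Cholesterol synthesis genes were also higher, with 13 of 15 passing upward and 1 downward (median 0.76), against 17.7% and 15.5% of all genes. In BALB/cJ controls 2 were higher and 2 lower (median 0.07), against 13.6% and 13.4% of all genes. Lss lay at 8.17, 9.81 and 11.19 in BALB/cJ CR and at 7.31, 8.06 and 9.39 in the controls, a difference of 1.51 (adjusted p = 2.47e-11). Cyp51 (1.28), which removes a methyl group from lanosterol, Fdps (1.04), which makes farnesyl diphosphate, and Pmvk (0.96) followed. Hmgcs1, which makes HMG-CoA, was lower, at 9.64, 9.90 and 10.69 against 9.99, 10.66 and 11.05 (-0.61, adjusted p = 1.45e-11), and was lower in BALB/cJ controls too (-0.71). The regulator Srebf2 did not pass (-0.20). Without the 13 arrays 11 genes passed upward, with a median of 0.51.

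Genes of triacylglycerol synthesis and of pathways that supply carbon and reducing power were higher too, where 17.7% of all genes were higher. In triacylglycerol synthesis 10 of 13 were higher (median 0.59), led by Gpd2 (1.53), the mitochondrial glycerol phosphate dehydrogenase, and Mogat2 (1.43), a monoacylglycerol acyltransferase. In glucose uptake and glycolysis 11 of 15 were higher and 1 lower, and the fructose transporter Slc2a5 differed by 1.49. The pentose phosphate pathway had 5 of 7 higher, with transketolase (Tkt) at 1.33. Pyruvate dehydrogenase and citric acid cycle genes had 19 of 24 higher (median 0.48), led by Pdhb at 1.21. In BALB/cJ controls 7 of 13 triacylglycerol genes (median 0.28) and 14 of 24 pyruvate and citric acid cycle genes (0.22) were higher. Glycolysis had 5 of 15 higher there and the pentose phosphate pathway 1 of 7, where 13.6% of all genes were higher. Between the BALB/cJ diets 3, 3, 8 and 3 genes of these lists were higher on CR (1.18% of all genes).

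Mitochondrial groups were mostly higher, where 17.7% of all genes were higher and 15.5% lower. Complex I genes were higher in 21 of 29 (median 0.31), complexes III and IV and ATP synthase in 21 of 24 (0.33), and the mitochondrial ribosome in 24 of 30 (0.25), with none lower in these 3 lists. In BALB/cJ controls 4, 9 and 8 of them were higher (13.6% of all genes) and 0, 1 and 2 lower (13.4%). Fatty acid beta-oxidation had 13 of 17 higher and 1 lower (0.51), with the thiolase Acaa2 at 0.73. The same counts, 13 and 1, were found in BALB/cJ controls, with a median of 0.30. The proteasome, which degrades tagged proteins, had 27 of 29 higher (0.35), and 17 of them passed against each of the 6 control groups (3.66% of all genes). Its largest difference was 0.69 in Psmb5, a catalytic subunit. In BALB/cJ controls 14 of the 29 proteasome genes were higher. The cytosolic ribosome went the other way, with 2 of 22 higher and 10 lower, and BALB/cJ controls had the same counts, 2 and 10. Brown and beige adipocyte genes had a median of 0.46 with 8 of 13 higher, but the defining gene Ucp1 did not pass (-0.29).

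**Figure D3:**
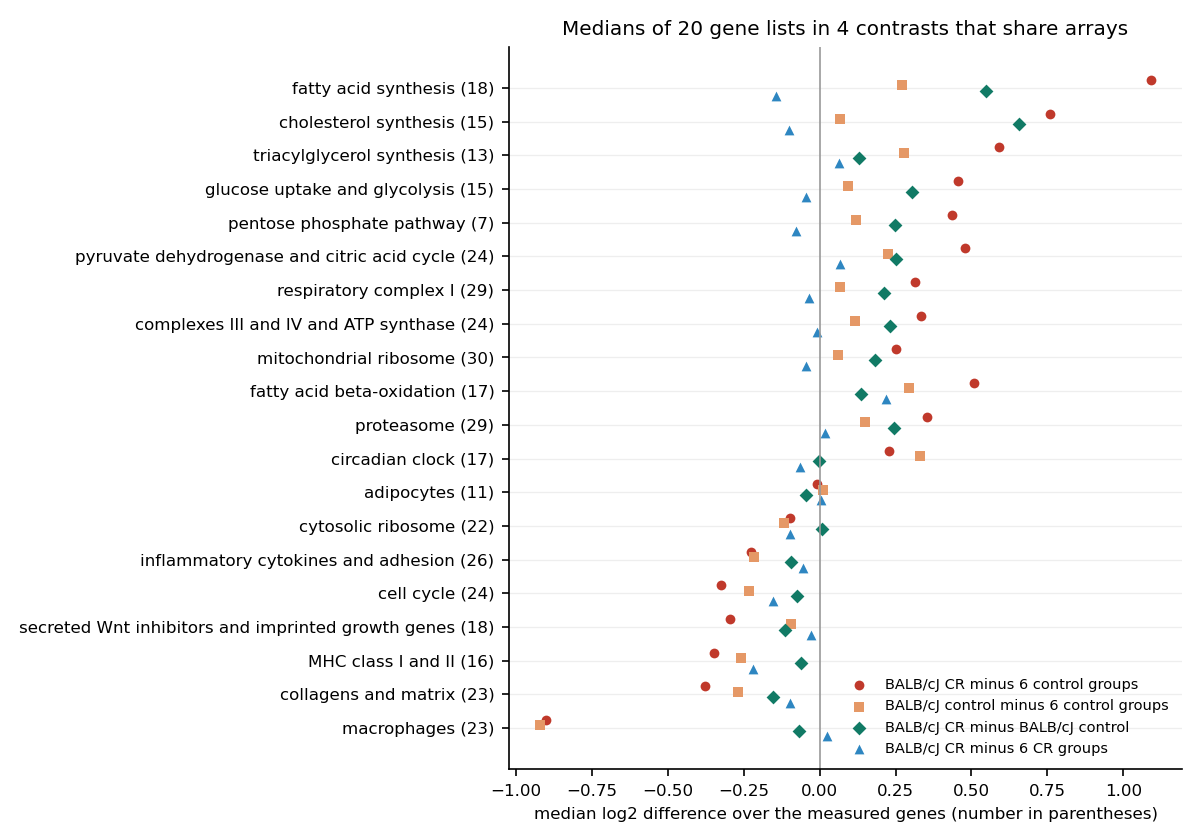
Median log2 difference over the genes of 20 lists (number measured in parentheses) in 4 contrasts: BALB/cJ CR minus the 6 control groups, BALB/cJ control minus the 6 control groups, BALB/cJ CR minus BALB/cJ control, and BALB/cJ CR minus the 6 CR groups. Fatty acid synthesis has medians of 1.09, 0.27, 0.55 and -0.14, and macrophages of -0.90, -0.92, -0.07 and 0.03.

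Macrophage genes were lower in BALB/cJ CR, with 22 of 23 passing and none higher (median -0.90). In whole tissue, fewer cells of a type and less RNA per cell cannot be told apart. Itgax, an integrin of inflammatory adipose macrophages, lay at 6.38, 7.47 and 8.04 in BALB/cJ CR and at 6.92, 8.86 and 11.13 in the controls, a difference of -1.61. Cd84, a receptor of immune cells, differed by -1.58, and Gpnmb and Ctss by -1.32 and -1.26. The ranges of BALB/cJ CR and the controls overlapped in all 23 genes. BALB/cJ controls had the same number lower, 22 of 23, with a median of -0.92, and none passed between the BALB/cJ diets, in which 1.36% of all genes passed. T cell markers had 3 of 11 lower, neutrophil markers 3 of 10, mast cell markers 4 of 10 lower and 1 higher, and B cell markers none of 9 called, where 15.5% of all genes were lower and 17.7% higher.

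Antigen presentation and inflammatory genes were low as well, where 15.5% of all genes were lower. Class I and II genes had 13 of 16 lower and 1 higher, with H2-Ab1 (-1.84), Cd74 (-1.30) and H2-DMa (-1.15) the largest decreases. The 1 higher gene was H2-Ea (1.48), whose mean over the 6 control groups includes the 2 strains that do not express it. Inflammatory cytokine and adhesion genes had 12 of 26 lower, including the chemokines Ccl9 (-1.19) and Ccl2 (-0.76), and interferon-stimulated genes had 10 of 21 lower. No gene of these 3 lists was called between the BALB/cJ diets, where 1.36% of all genes were called. In BALB/cJ controls 10 of 16, 13 of 26 and 4 of 21 were lower (13.4% of all genes), and 1 was higher in each list.

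Matrix, growth and cell cycle genes formed a further low group, where 15.5% of all genes were lower. In BALB/cJ controls, where 13.4% of all genes were lower, 18 of 23 collagen and matrix genes were lower too (median -0.27). So were 10 of 24 cell cycle genes and 7 of 18 Wnt inhibitor and imprinted genes. In BALB/cJ CR the counts were as follows. Collagens and matrix had 18 of 23 lower (median -0.38), and cell cycle genes had 18 of 24 lower (-0.32), among them Mcm6 (-0.86), a replication helicase subunit, and Mki67 (-0.64). Secreted Wnt inhibitors and imprinted growth genes had 10 of 18 lower and 1 higher. Mest, an imprinted gene tied to fat cell size, lay at 8.08, 10.93 and 12.04 in BALB/cJ CR and at 11.65, 12.43 and 12.81 in the controls, a difference of -1.80. Nnat (-1.73) and the Wnt inhibitor Sfrp4 (-1.28) were lower too. No collagen, cell cycle or imprinted gene of these lists passed between the BALB/cJ diets, where 1.36% of all genes passed. Without CR mouse 6, 997 of all genes passed, among them 2 lower on CR in collagens and matrix. A further 2 were lower in Wnt inhibitors and imprinted genes, and none in cell cycle genes. The medians of Mest in BALB/cJ were 10.93 on CR and 11.76 on control.

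**Figure D4:**
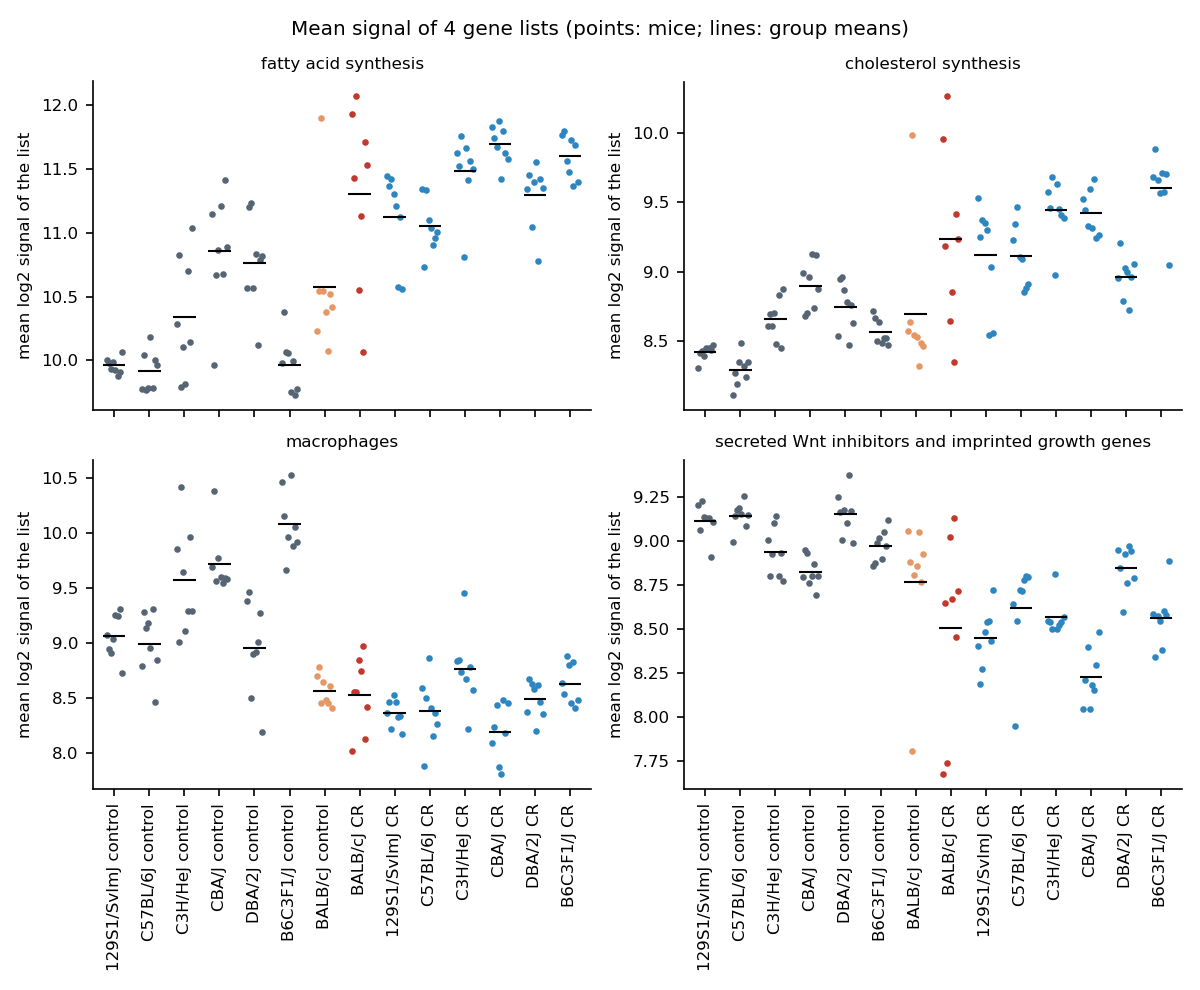
Mean log2 intensity over the genes of 4 lists in each mouse (points) of the 14 groups, with group means as lines. In fatty acid synthesis 5 of 8 BALB/cJ CR mice are above all 48 controls of the other strains, while in macrophages both BALB/cJ groups lie low together.

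Leptin (Lep), the satiety hormone of fat, was lower, at 9.05, 10.69 and 11.50 against 11.07, 11.92 and 12.38 (-1.33, adjusted p = 1.03e-14). The highest CR values overlapped the lowest controls. In BALB/cJ controls it was 10.14, 10.67 and 11.21, which spans the CR median. Adiponectin (Adipoq) differed by -0.17. Nampt, the rate-limiting enzyme of NAD salvage, was higher without overlap, at 10.14, 10.39 and 10.74 against 9.02, 9.44 and 10.09 (0.93, adjusted p = 3.85e-18), and Nnt, the mitochondrial transhydrogenase, likewise at 9.24, 9.37 and 9.62 against 7.98, 8.36 and 8.98 (0.96). The glutathione transferase Gsta4 was at 10.40, 10.63 and 10.75 against 8.01, 9.30 and 10.17, also without overlap. Nampt and Nnt were raised in BALB/cJ controls by 0.81 and 0.92.

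The difference from the 6 control groups is the sum of BALB/cJ control minus the same groups and BALB/cJ CR minus BALB/cJ control, and these parts share arrays with it. Of the 730 genes higher against each of the 6, 624 were also higher in BALB/cJ controls (13.6% of all genes) and 79 rose between the BALB/cJ diets (1.18% of all genes), while 1 fell. Of the 492 lower genes, 472 were also lower in BALB/cJ controls (13.4% of all genes) and 5 fell between the diets (0.181% of all genes). Among the 16 largest genes, BALB/cJ controls minus the 6 groups gave 5.57 in Rarres1, -2.09 in Zhx2, -2.54 in Fgf13 and -2.33 in Prr32, and the diet gave -0.08, 0.01, 0.56 and 0.18.

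Between the BALB/cJ diets 272 genes passed (1.36%), 236 higher on CR (1.18%) and 36 lower (0.181%). Of these, 214 were also called with 1 sign against the 6 control groups, 195 higher and 19 lower. The 272 became 10 to 997 when 1 CR mouse was left out (lowest without mouse 3, highest without mouse 6) and 27 to 1642 when 1 control mouse was (lowest without mouse 6, highest without mouse 3). For the 214 genes of both contrasts, leaving out CR mice 1 to 8 in turn gave 13, 96, 6, 601, 357, 804, 21 and 63 genes. Leaving out BALB/cJ control mice 1 to 8 in turn gave 34, 98, 1190, 109, 48, 20, 70 and 34, and that count was 0 without the 13 arrays with other tissues. With that omission 3 genes passed between the BALB/cJ diets in limma and 1058 had an unadjusted p under 0.05, of which 506 were also called against the 6 control groups with 1 sign. Fitted on the groups of the comparison alone, 20 genes were called in both contrasts.

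Acly had the largest of these increases, with 9.56, 12.39 and 13.30 on CR and 9.22, 9.88 and 13 on control (1.74 ± 0.34, adjusted p = 0.00403). The control value of 13 was mouse 3, the next highest was 10.21, and the CR values below 11 were mice 6 and 4. Over the 16 fits that each left out 1 BALB/cJ mouse it ran from 1.54 to 2.15 and passed in all 16. Aqp11 (1.52) and Mogat2 (1.58, adjusted p = 0.000999) also passed in all 16 fits. Elovl6 (1.57) passed in 11, Acss2 (1.25) in 12, Lss (1.11, adjusted p = 0.00914) in 14 and Fdps (1.04) in 12. Slc2a5 (1.40) passed in 4. By list, 7 of 18 fatty acid genes, 4 of 15 cholesterol genes, 8 of 15 glycolysis genes and 9 of 29 proteasome genes were higher on CR (1.18% of all genes). These counts rested on single mice. Without CR mouse 3 they were 1, 0, 0 and 0, without CR mouse 1 they were 2, 0, 0 and 1, and without CR mouse 7 they were 2, 1, 0 and 1. Without CR mouse 6 they were 11, 11, 10 and 16, and without control mouse 3 they were 13, 11, 11 and 24. The number of all genes called moved with them. It was 10, 18 and 27 without CR mouse 3, 1 or 7, 997 without CR mouse 6, and largest without control mouse 3.

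The genes lower in both contrasts were few. Vnn1, a pantetheinase, differed by -0.75 from the 6 control groups and by -1.08 from BALB/cJ controls (adjusted p = 0.0141). Adcy5, an adenylate cyclase, gave -1.08 and -0.66 (adjusted p = 0.0489), Chrdl1, a BMP antagonist, -1.02 and -0.60, Emp1 -0.97 and -0.60, and Sesn2, a stress-induced regulator of mTORC1, -1.13 and -0.48. Slc9a3r2 gave -0.49 and -0.46. When each BALB/cJ mouse was left out in turn, Vnn1 and Slc9a3r2 passed between the diets in 12 of 16 fits, Chrdl1 in 10, and Adcy5, Emp1 and Sesn2 in 4.

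**Figure D5:**
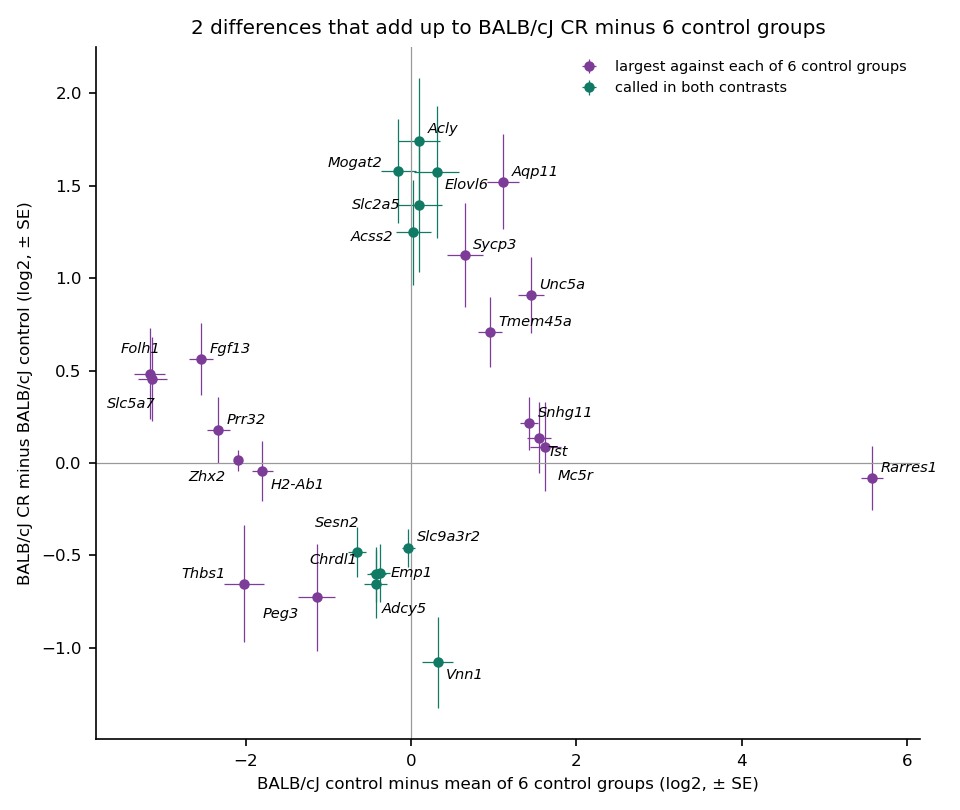
For 27 named genes, BALB/cJ control minus the mean of the 6 control groups (x axis) against BALB/cJ CR minus BALB/cJ control (y axis), both log2 ± SE. Rarres1 at 5.57 and Zhx2 at -2.09 lie on the line of no diet difference, Acly and Acss2 lie near 0 on the x axis at 1.74 and 1.25, and Aqp11 is displaced on both axes.

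Against the CR mice of the other strains, which were given 18 g or less, 3369 genes differed (16.9%), 1835 higher (9.2%) and 1534 lower (7.69%). Fatty acid synthesis genes had 2 of 18 higher and none lower, with a median of -0.14. Acly was at 10.71, 12.53 and 13.13 in those CR mice, and BALB/cJ CR differed from them by -0.45 (adjusted p = 0.273, SE 0.26). Acss2 differed by -0.39 (adjusted p = 0.245), and Slc2a5 was lower by that test, at -0.83 (adjusted p = 0.0254). Macrophage genes had 3 of 23 higher and none lower. Rarres1 (5.37), Zhx2 (-2.22), Slc5a7 (-2.16), Aqp11 (1.95) and H2-Ab1 (-1.12) kept their direction. Of the 730 genes higher against each control group, 391 were also higher than the 6 CR groups, and of the 492 lower genes 268 were also lower. For the 195 genes higher in both contrasts, 154 were not called against the CR groups, 31 were higher and 10 lower. All these genes were chosen with the same BALB/cJ CR arrays that this contrast uses. Their overlap with its calls is thus partly built in and is no independent support.

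Genes that CR changed in some strains were then read in BALB/cJ against controls of other strains, so that no array served on both sides. C3H/HeJ and C57BL/6 are parents of B6C3F1/J, which stood opposite C3H/HeJ, so the sides are not fully unrelated. Of 2820 genes higher on CR in C3H/HeJ, CBA/J and DBA/2J, 1810 (64.2%) were higher in BALB/cJ CR than in the controls of 129S1/SvImJ, C57BL/6J and B6C3F1/J and 62 (2.2%) lower. Of all genes, 35% differed there and 19% were higher. These 1810 were 47.7% of the genes higher in BALB/cJ CR there. In BALB/cJ controls 1057 (37.5%) were higher, against 14% of all genes. Of 2995 genes lower on CR, 1765 (58.9%, background 15.9%) were lower in BALB/cJ CR and 1320 (44.1%, background 12.9%) in BALB/cJ controls.

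The reverse split gave smaller shares. Of 3549 genes higher on CR in 129S1/SvImJ, C57BL/6J and B6C3F1/J, 1719 (48.4%, background 14.8%) were higher in BALB/cJ CR than in the controls of C3H/HeJ, CBA/J and DBA/2J, and they were 58.2% of all genes higher there. The BALB/cJ controls showed 756 higher (21.3%, background 12.8%) and 499 lower (14.1%), with a median difference of 0.026 against 0.030 over all genes. Of 3158 genes lower on CR, 1528 (48.4%, background 14.2%) were lower in BALB/cJ CR and 1107 (35.1%, background 13.9%) in BALB/cJ controls, where 360 (11.4%) were higher. The opposite calls in BALB/cJ CR were 168 (4.73%) and 107 (3.39%). In both splits the BALB/cJ CR counts in the direction of CR exceeded those of BALB/cJ controls, and the difference between them was not tested.

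The WAT markers of CR that the study had selected, of which 10 were measured, were chosen on these samples and are no independent evidence of direction. Against the 6 control groups 8 were higher and 2 lower: Gpd2 (1.53), Parm1 (1.30), Acss2 (1.28), Acaca (1.26), Me1 (1.13), Nampt (0.93), Slc2a4 (0.78) and Ndufs4 (0.44), and the macrophage protein Cd68 (-1.09) and the interferon-induced Ifi27l2a (-1.05). In BALB/cJ controls 4 were higher and 1 lower than in the same groups, and 4 were higher on CR than on control in BALB/cJ. That last count was 0 without CR mouse 1, 3 or 7 or control mouse 6, and 7 without CR mouse 6 or control mouse 3.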

How the data were processed

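RNA of epididymal WAT was hybridised to Affymetrix Mouse Gene 1.0 ST arrays, 1 per mouse. The deposited values are log2 gene-level intensities that the authors made with RMA-Sketch in Affymetrix Expression Console (version not given in the sources used here). They were used as deposited. Of 35556 probe sets, 21789 had 1 symbol, 1621 several and 12146 none in the platform annotation. A gene on more than 1 probe set (999 genes) was read from the one with the highest mean, which left 19938 genes, with no filter on low values. Groups came from the sample titles.

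One model with a mean for each of 14 groups was fitted to all 112 arrays in limma (3.58.1, R 4.3.3), moderated by eBayes, with Benjamini-Hochberg adjustment over all genes and an adjusted p under 0.05 as threshold. The main contrast was BALB/cJ CR minus the equally weighted mean of 6 control groups. This pooled variance assumes a like spread in all groups, and BALB/cJ spread more in lipogenic genes. The fit was also run on simulated data with independent noise of the same spread in all groups, which could not test that assumption. The members, gene lists and tests were chosen with earlier results of these data known. Named genes were the 8 largest in each direction among those passing against each control group, the 6 in each direction with the largest smaller difference among those called in both contrasts, up to 4 per list, all of the fatty acid synthesis, clock and CR marker lists, and label checks. Motifs were counted in the 250 bases before RefSeq starts. Alternatives were quantile normalization, median centring, array weights, robust variance, a filter on dim genes, averaged probe sets and the replicate number as a block. Others left out single mice or control groups, took strain as the unit, or used an unmoderated t-test of the contrast on linear values.

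Labels name no array batch, arrays hold no read depth, and the number of mice limits precision. Probes can bind less where a strain's sequence differs from the design, which was not tested. Replicate numbers share no animal, and mice of 1 number did not deviate together (correlations of -0.401 to 0.55). Python 3.11.15, pandas 2.3.3, numpy 2.4.6 and matplotlib 3.10.9 were used.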

Additional observations from a re-analysis of the deposited data

Results flagged for a closer look

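Among 146 sets of 8 BALB/cJ values (28 genes and 45 lists under 2 diets), 41 had 1 mouse far from the other 7, where chance gives about 1 set in 20. Most of these were BALB/cJ control mouse 3, and the sets overlap in genes. It was the highest of its group in Aqp11 (11.58), Unc5a (10.98), Sycp3 (10.09), Tmem45a (9.57), Acly (13), Elovl6 (13.24), Mogat2 (10.07), Slc2a5 (9.69) and Acss2 (12.09), genes that were higher in BALB/cJ CR. It was the lowest in Peg3 (7.54), Vnn1 (7.83), Adcy5 (7.92), Emp1 (10.49), Sesn2 (7.74) and Slc9a3r2 (9.49), genes that were lower there.

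Its list means were apart upward in fatty acid synthesis (11.90), the pentose phosphate pathway (10.32), glycolysis (10.80), triacylglycerol synthesis (10.86), lipolysis and lipid droplet (11.83) and pyruvate dehydrogenase with the citric acid cycle (11.14). The same was seen for complexes III and IV with ATP synthase (11.55), complex I (9.89), the mitochondrial ribosome (8.89), beta-oxidation (11.19), cholesterol synthesis (9.99) and the proteasome (10.14). The brown and beige genes (8.81), sirtuins and NAD genes (9.09) and the CR markers of the study (11.14) were apart upward too. Adipocyte transcription factors (8.90), adipokines (10.48), Wnt inhibitors and imprinted genes (7.81), collagens and matrix (9.06) and antigen presentation genes (8.87) were apart downward. A cause was not tested.

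The other mice apart were BALB/cJ CR mouse 1 in H2-Ab1 (8.33) and in adipose fibroblast markers (9.40), CR mouse 6 in heat shock genes (10.50), CR mouse 3 in seminal vesicle markers (5.89), CR mouse 7 in skeletal muscle markers (7.43) and control mouse 7 in Mc5r (9.42).

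In 7 of 28 named genes the CR minus control difference in BALB/cJ differed from that in the 6 other strains by limma's interaction term. All 7 had been named as decreases by contrasts that share arrays with this term, and how that choice bears on these calls was not tested. The values are therefore a description, and the share of all genes called is not given here. In Thbs1 and Peg3, CR mice 4 and 6 were the highest of their group and control mouse 3 the lowest. Thbs1 gave -0.66 in BALB/cJ (adjusted p = 0.349) and -2.07 elsewhere, apart by 1.41 (adjusted p = 0.00557). Peg3 gave -0.73 (adjusted p = 0.207) and -2.06, apart by 1.33 (adjusted p = 0.00417). Slc5a7 gave values of opposite sign, 0.45 and -0.51, apart by 0.97 (adjusted p = 0.00926). The remaining genes were Adcy5 (0.75, adjusted p = 0.0162), H2-Ab1 (0.68, adjusted p = 0.0124), Prr32 (0.65, adjusted p = 0.0411) and Emp1 (0.55, adjusted p = 0.0476).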

How the results depend on the processing

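Of 126 counts under alternatives, 103 stayed within 1.5 times the value given. The 6621 genes against the 6 control groups became 17 with strain as the unit and 196 at a log2 difference of at least 1, and otherwise 5796 to 7656. The 1222 genes passing against each group became 1906 with array weights. The 214 genes called in both contrasts became 20 on the groups of the contrast alone, 1416 with array weights, 393 with genes dimmer than the median probe set left out and 0 without the arrays with other tissues, and 6 to 1190 with 1 BALB/cJ mouse left out (6 to 804 for CR mice, 20 to 1190 for control mice). The cause was not tested. With the replicate number as a block the counts were 6835, 1304 and 277, and the block moved none by over 1.5 times. An unmoderated t-test of the contrast on linear values gave 6323 genes at the study's threshold and 6864 after Benjamini-Hochberg adjustment. It pooled the spread of the groups of the contrast, where the study compared the diets within each strain. For 27 named genes followed through 432 values of BALB/cJ CR against the 6 control groups, 409 kept direction and call and 23, all with strain as the unit, lost the call, and none changed sign there. Between the BALB/cJ diets single omissions ended calls, as for Slc2a5 (4 of 16 fits passed), and turned the sign of differences near 0 that had not passed, as for Mc5r (-0.021 to 0.204). Arrays limit dim genes by background, which was not measured here.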

Other observations

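Some clock, glucocorticoid and chaperone genes also differed between BALB/cJ CR and the 6 control groups, where 17.7% of all genes were higher and 15.5% lower. List means of BALB/cJ CR and control mice overlapped in all 3 lists. None of the lists had a gene called between the BALB/cJ diets, where 1.36% of all genes were called. Of 17 clock genes, 9 were higher and 2 lower: Rora (0.49), which activates the clock loop, lay at 9.04, 9.26 and 9.35 in BALB/cJ CR and at 8.49, 8.73 and 9.22 in the controls, and the repressor Nr1d1 was lower (-0.72). BALB/cJ controls had 10 higher and 3 lower, where 13.6% and 13.4% of all genes were. Of 14 glucocorticoid targets, 7 were higher and 1 lower, among them Fkbp5 (0.67), Errfi1 (0.60) and Hsd11b1 (0.54), which regenerates active glucocorticoid. In heat shock and unfolded protein genes 9 of 21 were higher and 1 lower, and 12 were higher in BALB/cJ controls. Hspe1, a mitochondrial chaperonin, lay at 10.77, 10.96 and 11.20 without overlap with the controls at 9.05, 9.85 and 10.67.

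Other genes without overlap, picked after their values were seen, were Cyp2b10 (1.39), a xenobiotic monooxygenase, Kcnk2 (1.29), a potassium channel, and Bcat2 (0.98), which starts branched-chain amino acid breakdown. Retnla (-1.46), a secreted product of alternatively activated macrophages, and the death receptor Fas (-0.89) were lower. Galnt10 (-0.54) was the 1 gene without overlap that did not pass against each of the 6 control groups. Sirtuins and NAD genes had 8 of 13 higher (17.7% of all genes). The list mean of every BALB/cJ CR mouse (8.86 to 9.04) was above that of all 48 controls of the other strains (8.56 to 8.81). BALB/cJ controls lay at a like level, from 8.81 to 9.09 with a median of 8.89. In them 7 of the 13 were higher (13.6% of all genes), and none of the 13 was called between the BALB/cJ diets (1.36% of all genes). Epididymis markers had none of 14 called (33.2% of all genes), with list means of 4.82 to 5.16 in BALB/cJ CR and 4.84 to 9.39 in the controls.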
